A study of Homo sapiens with 6 samples.

Results

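Interferon response genes are the transcripts that cells switch on when they sense viral or foreign nucleic acid and when interferon reaches their receptors. They were described here through a list of 35 genes named for interferon induction or RNA sensing, each taken with all probe sets of the platform annotation that name it alone. The list was followed in SK-Hep1, an established human cell line derived from ascites of a patient with liver adenocarcinoma, cultured with or without an oligonucleotide against the microRNA miR-21. The tested cells were transfected with 20 nM of anti-miR-21, 24 hours after plating, and the mock cells went through the lipid transfection with no oligonucleotide. Cells were collected after a further 16 hours, and each group held 3 arrays described as biological replicates. Because no mock array received an oligonucleotide of another sequence, an effect of blocking miR-21 and an effect of carrying any oligonucleotide cannot be told apart. The labels give total RNA, while the collection protocol cites an Argonaute pull-down, and the sources do not settle which fraction was hybridised.

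Of the 35 listed genes, 34 had a probe set of their own, with 56 probe sets in all among 54675 on the array. A gene was tested where a probe set reached a mean log2 value of 4 over the 6 arrays, which left 24 listed genes and 34 of their probe sets, among 10848 genes and 22408 probe sets in the series. A further 10 genes stayed below that level on all 15 of their probe sets. Expression of STAT2 is not analysed here.

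Cells sense foreign RNA through cytosolic helicases such as RIG-I and MDA5 and through Toll-like receptors, and answer with interferon beta. Interferon bound to its receptor activates Janus kinases, which assemble a STAT and IRF9 complex on a promoter motif called the interferon-stimulated response element. The genes switched on in this way encode proteins that bind or degrade viral RNA, block entry or tune the response itself, and many cell lines express part of the set without added interferon. miR-21 is an abundant microRNA in many tumour cells. Its mature strand miR-21-5p is shown with the seed, bases 2 to 8, in capitals, since seed pairing is what selects its targets.
hsa-miR-21-5p: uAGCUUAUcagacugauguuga
The sequence is RefSeq's, from GRCh38.p14, and that of the oligonucleotide is not among the sources used here.

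The response element was looked for as GAAA, any 2 bases and GAAA again, on either strand, in RefSeq windows of GRCh38.p14 that run from 250 bases before to 50 after a gene's start, with overlapping matches counted separately. Windows were at hand for 29 of the 35 genes, and 19 of them (65.5%) held at least 1 match, against 1195 of 27305 genes in the whole table (4.38%). Of all 35116 windows 3.57% held a match. All 3 genes that fell after anti-miR-21 had a match, as did 11 of the 17 tested genes with a window that did not pass the test and 5 of the 9 that were not tested. Those 9 include STAT2, which had no match. A match describes letters in a window and says nothing of binding. Stretches upstream of the start, read along the gene's strand with matches in capitals, are shown for the 3 genes that fell and for a pair of IFIT relatives that did not pass.
IFIT1: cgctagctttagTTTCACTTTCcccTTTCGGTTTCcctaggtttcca
IFI44: gggcacactgagTTTCAGTTTCctttctct
SAMD9: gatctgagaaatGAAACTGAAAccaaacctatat
IFIT3: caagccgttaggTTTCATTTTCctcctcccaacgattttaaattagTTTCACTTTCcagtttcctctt
IFIT5: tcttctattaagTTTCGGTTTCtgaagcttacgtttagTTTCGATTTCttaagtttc
The IFIT1 stretch is chr10:89392495-89392541 on the plus strand, with matches beginning 116 and 103 bases before the start. The IFI44 stretch is chr1:78649759-78649788 on the plus strand, with its match 18 bases before the start. The SAMD9 stretch is chr7:93118094-93118127 on the minus strand, with its match 136 bases before the start. The IFIT3 stretch is chr10:89327829-89327896 and the IFIT5 stretch chr10:89414511-89414567, both on the plus strand. A further IFIT5 match begins 4 bases before the start and is cut off by the end of the stretch, so it stands in lower case. Matches of the motif were thus present in IFIT1, which fell, and in IFIT3 and IFIT5, which did not pass.

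Log2 levels were closely correlated between all arrays. The wide range of levels among probe sets dominates such correlations, so they cannot show small differences. Arrays of the same group correlated at 0.99625 to 0.99828 over tested probe sets and arrays of different groups at 0.99387 to 0.99729. On the leading principal component, which held 50.4% of the variance, anti-miR-21 replicate 1 lay at 3.51, between the other anti-miR-21 arrays (19.6 and 20.1) and the mock arrays (-20.0 to -7.25). The difference between 3' and 5' control probe sets of ACTB, a sign of RNA integrity, averaged 0.595 ± 0.009 in anti-miR-21 cells and 0.564 ± 0.069 in mock cells (SD, n = 3 each, two-sided exact permutation p = 0.7, where 0.1 is the smallest p possible). Mesenchymal markers fixed for the label check were above the filter in 4 of 5 genes, whereas 1 of 7 endothelial markers (TEK), 3 of 7 hepatocyte markers (SERPINA1, AFP and TF) and 1 of the 6 annotated of 8 immune cell markers (CD14) were. Over the 6 arrays SERPINA1 averaged 11.9 and 11.4 on its tested probe sets, AFP 4.22, TF 4.02, TEK 4.66 and CD14 5.30. ALB, PECAM1, CDH5 and PTPRC were among the genes below the filter. Summed over the annotated immune genes, log2 values ran from 18.5 to 18.9 in anti-miR-21 arrays and from 18.1 to 18.6 in mock arrays. All of these genes but CD14 lay below the filter, so the sum cannot measure immune cell content. The part of other cells in the results was not tested.

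Of the listed genes, 3 fell after anti-miR-21 and none rose. Of the 24 tested, IFIT1, IFI44 and SAMD9 passed downward (12.5%), where 1.22% of all tested genes did, and 21 did not pass, where 0.913% of all genes passed upward. At an unadjusted limma p below 0.05, 6 of the 24 were lower (11.3% of all genes) and 0 higher (6.84% of all genes). The median log2 fold change was -0.06 for the 24 genes and -0.02 for all genes, and 14 of the 24 were negative (58.3%), as were 6152 of all 10848 (56.7%). At the level of probe sets, 3 of 34 were called lower (1.07% of all tested) and 0 higher (1.1%), and 8 of 34 had every anti-miR-21 array below every mock array (12.6% of all tested). The list was drawn up with earlier results of these arrays in view, so the shares are descriptions.

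**Figure D1:**
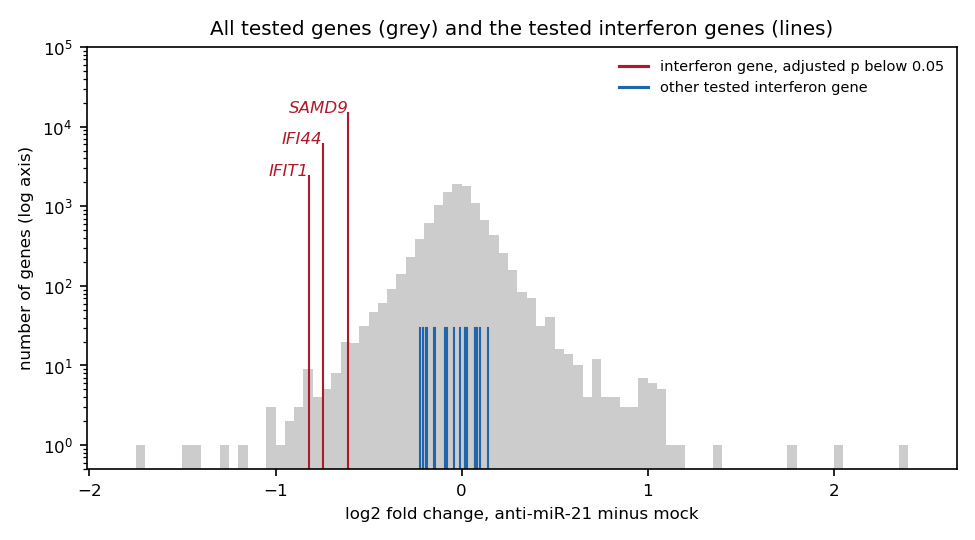
Histogram of log2 fold change (x axis, anti-miR-21 minus mock) over the 10848 tested genes, with the number of genes on a log axis. Red lines mark IFIT1, IFI44 and SAMD9, at -0.82, -0.75 and -0.61, and blue lines mark the other 21 tested interferon genes, which all lay between -0.22 and 0.14.

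IFIT1 belongs to a family of tetratricopeptide repeat proteins that recognise viral RNA, IFIT1 itself binding messenger RNA whose cap lacks 2'-O methylation. It read 9.79, 9.46 and 9.39 on the anti-miR-21 arrays, against 10.48, 10.31 and 10.31 on the mock arrays, all on the log2 scale. The groups did not overlap, and anti-miR-21 replicate 1 lay nearest to mock. Its log2 fold change was -0.82 ± 0.11 (SE), a 1.77-fold lower level (limma adjusted p = 0.021). In RNA of whole cultures, fewer cells expressing a gene and less RNA in each cell cannot be told apart. With 1 array left out, IFIT1 passed in 1 case of 6, when anti-miR-21 array 1 was omitted (adjusted p = 0.00938). The adjusted p was 0.0522, 0.0872 and 0.0745 on omitting mock array 1, 2 or 3, and 0.0935 and 0.0739 on omitting anti-miR-21 array 2 or 3.

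The other IFIT genes, which lie beside IFIT1 on chromosome 10, did not pass. IFIT3, a partner that stabilises IFIT1 on RNA, read 12.17, 12.05 and 12.01 with anti-miR-21, against 12.33, 12.33 and 12.22 in mock. These groups did not overlap, but the log2 fold change was -0.22 ± 0.06 (SE) with an adjusted p of 0.143 (limma). The other IFIT3 probe set had 9.34, 9.05 and 9.14 with anti-miR-21, against 9.54, 9.53 and 9.47 in mock, giving -0.34 on the log2 scale (limma adjusted p = 0.0965). It passed when anti-miR-21 array 1 was omitted (adjusted p = 0.0352). With array weights, where 13.6% of all genes were lower, each IFIT3 probe set passed (limma adjusted p = 0.00932 and 0.00715). IFIT2, which promotes apoptosis and binds AU-rich RNA, was at -0.14 and -0.13 on its probe sets (limma adjusted p = 0.421 and 0.483), and its representative was at -0.06 on omitting mock array 1. IFIT5, which binds RNA with a 5' triphosphate, had 0.02 and 0.06 (limma adjusted p = 0.888 and 0.535). The 95% confidence interval of the IFIT5 representative ran from -0.11 to 0.15.

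The distance between IFIT1 and its relatives was also taken within each array, where a scaling of the whole array drops out. IFIT1 minus IFIT5 was -0.88, -1.21 and -1.32 on the anti-miR-21 arrays, against -0.23, -0.38 and -0.27 on the mock arrays. This log2 difference was thus lower by 0.84 with anti-miR-21, with no overlap, and the same comparison gave group differences of -0.60 for IFIT3 and -0.68 for IFIT2, also with no overlap. Each had a two-sided exact permutation p of 0.1 (3 arrays against 3), which is the smallest p possible and is also 0.1 after adjustment over the 3 comparisons. The 3 comparisons share the IFIT1 values and were chosen after its fall was seen. They are therefore descriptions and add no separate support. The IFIT genes are paralogs, and the part of hybridisation between them was not tested.

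**Figure D2:**
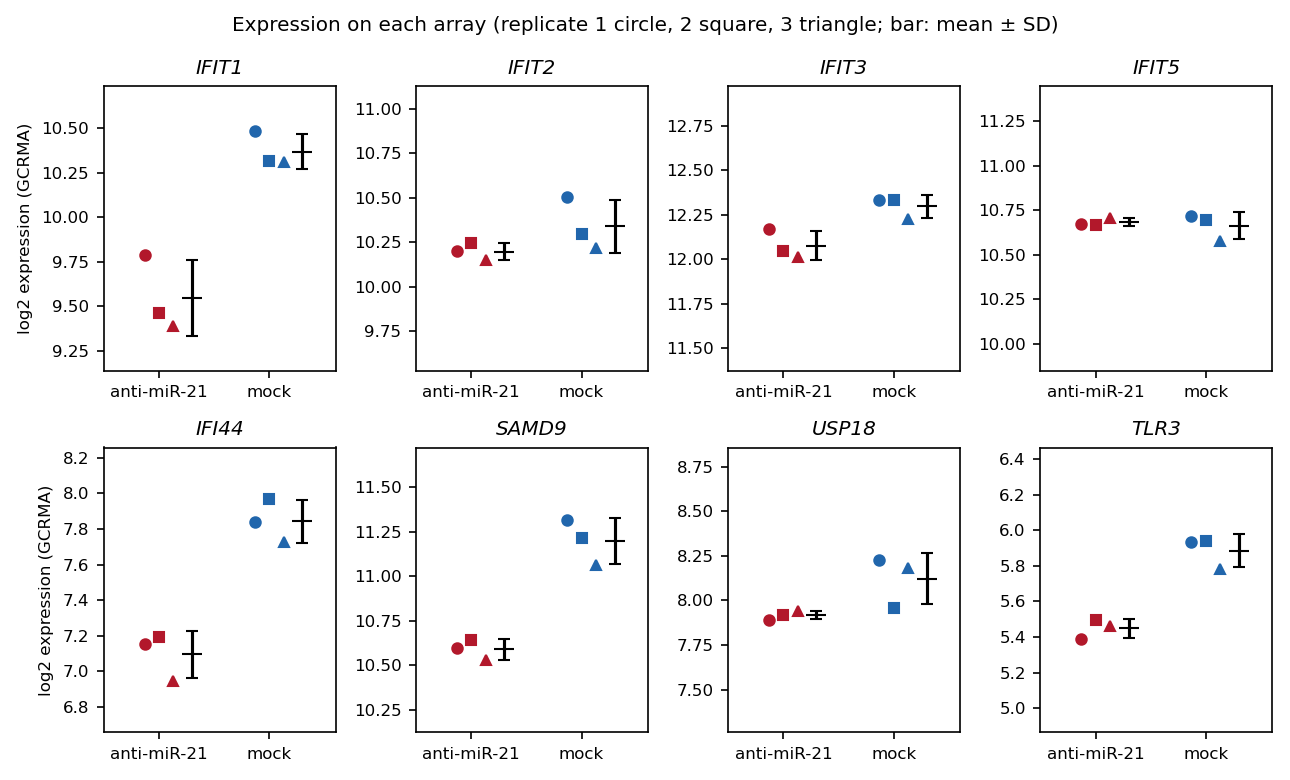
Log2 expression (y axis, each panel spanning 1.6 log2 units) on each array for the IFIT family, IFI44, SAMD9, USP18 and TLR3, with anti-miR-21 in red at the left and mock in blue at the right. Symbols are replicates 1, 2 and 3, and bars show mean ± SD. IFIT1, IFI44, SAMD9 and TLR3 separate widely, with IFIT1 at 9.39 to 9.79 with anti-miR-21 and 10.31 to 10.48 in mock. The groups overlap for the representative probe set of IFIT5, the one shown.

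IFI44 is an interferon-induced cytoplasmic protein that restrains viral replication. It read 7.15, 7.19 and 6.95 with anti-miR-21, against 7.84, 7.97 and 7.73 in mock, so that every anti-miR-21 array lay below every mock array. The log2 fold change was -0.75 ± 0.09 (SE), or 1.68-fold lower (limma adjusted p = 0.0149). That probe set belongs to a class that several transcripts can share (suffix s_at), and the other IFI44 probe set lay below the filter, at 2.58 ± 0.04 with anti-miR-21 and 2.55 ± 0.04 in mock (SD, n = 3 each). The neighbouring relative IFI44L also lay below it, at 1.97 ± 0.03 with anti-miR-21 and 1.95 ± 0.04 in mock (SD, n = 3 each). IFI44 passed on omitting anti-miR-21 array 1, mock array 1 or mock array 3 (adjusted p = 0.0317, 0.0410 and 0.0424) but not on omitting anti-miR-21 array 2 or 3 (0.0514 and 0.0558) or mock array 2 (0.0677).

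SAMD9 is a cytoplasmic host restriction factor against poxviruses. Its representative probe set read 10.60, 10.64 and 10.53 with anti-miR-21, against 11.32, 11.21 and 11.06 in mock. The groups did not overlap, and the log2 fold change was -0.61 ± 0.08 (SE), or 1.53-fold lower (limma adjusted p = 0.0163). The other SAMD9 probe set read 8.56, 8.50 and 8.45 with anti-miR-21, against 9.11, 8.68 and 8.45 in mock. There mock replicate 3 lay within the anti-miR-21 range, and the log2 fold change of -0.24 ± 0.16 (SE) did not pass (limma adjusted p = 0.472). The difference between the probe sets was 2.08 ± 0.05 with anti-miR-21 and 2.45 ± 0.21 in mock (SD, n = 3 each, two-sided exact permutation p = 0.1, the smallest possible). With both averaged the gene was at -0.42 and did not pass (adjusted p = 0.0842). SAMD9 did not pass on omitting anti-miR-21 array 2 or 3 (adjusted p = 0.0648 and 0.0731) or mock array 2 (0.0833), and passed on omitting any other array (0.0267 to 0.0372).

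**Figure D3:**
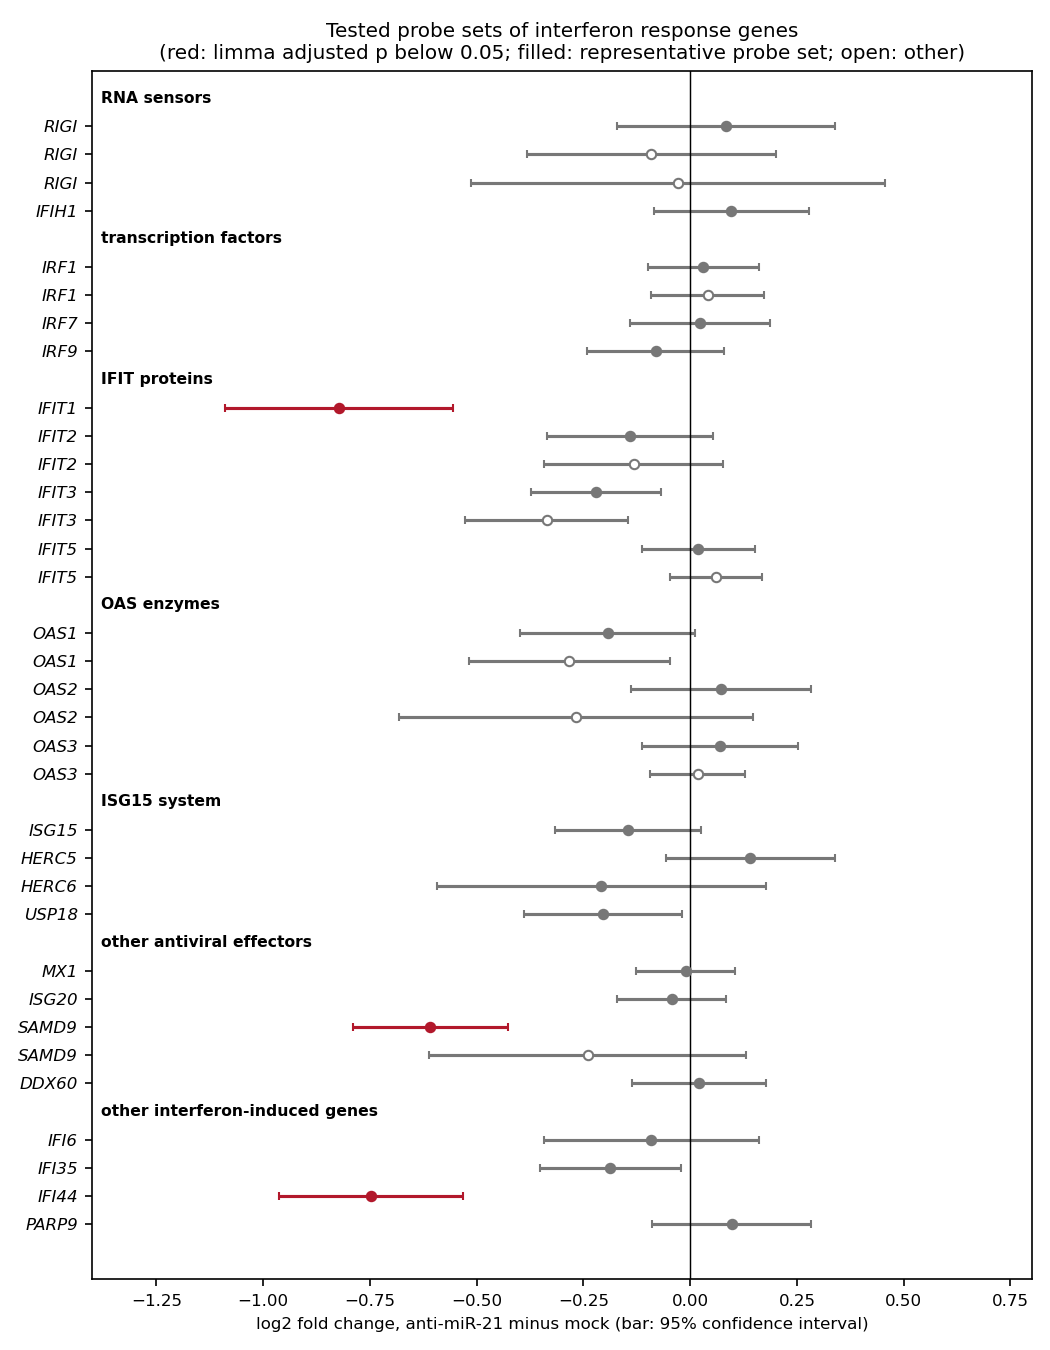
Log2 fold change (x axis, anti-miR-21 minus mock) with 95% confidence intervals for the 34 tested probe sets, ordered by role. Filled points are the representative of a gene, open points its other probe sets, and the 3 red points, IFIT1, SAMD9 and IFI44, passed the test, while most other intervals include 0.

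The listed ligands were all below the filter and so were not tested. Interferon beta itself, IFNB1, read 2.24, 2.32 and 2.33 with anti-miR-21, against 2.32, 2.29 and 2.22 in mock, below the filter and with overlapping groups. The interferon-induced chemokines CXCL10 and CXCL11 also lay below the filter, at 1.96 ± 0.02 and 2.76 ± 0.09 with anti-miR-21, against 1.94 ± 0.02 and 2.72 ± 0.06 in mock (SD, n = 3 each, brighter probe set). A value at this level does not show that a transcript is absent, since GCRMA compresses faint signals to near a shared floor.

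Both cytosolic sensors were tested, and neither passed. RIGI, the helicase RIG-I that detects 5' triphosphate RNA, read 8.29, 8.46 and 8.23 with anti-miR-21, against 8.43, 8.23 and 8.06 in mock. IFIH1, the helicase MDA5 that detects long double-stranded RNA, read 9.00, 9.02 and 8.82 with anti-miR-21, against 8.91, 8.88 and 8.75 in mock. Groups overlapped for both, and the log2 differences were 0.08 for RIGI (limma adjusted p = 0.725) and 0.10 for IFIH1 (0.553). The dimmer RIGI probe sets had -0.09 and -0.03, so the sign for RIGI depended on the probe set.

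None of the 3 tested transcription factors passed. IRF9, the DNA-binding partner of the STAT complex, read 9.32, 9.22 and 9.30 with anti-miR-21, against 9.27, 9.34 and 9.48 in mock, which gave -0.08 (limma adjusted p = 0.576). IRF1, an activator shared with the interferon gamma response, read 9.71, 9.82 and 9.69 with anti-miR-21, against 9.69, 9.72 and 9.73 in mock, at 0.03 (adjusted p = 0.811). IRF7, which amplifies interferon production, was at 0.02 (adjusted p = 0.890). Their 95% confidence intervals together spanned -0.24 to 0.19, so changes of the size seen for IFIT1 lay outside them.

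Among the OAS enzymes, which make oligoadenylates that activate ribonuclease L, none of 3 tested genes passed. OAS1 read 8.82, 8.58 and 8.59 with anti-miR-21, against 8.92, 8.90 and 8.74 in mock, with an overlap between anti-miR-21 replicate 1 and mock replicate 3. Its log2 fold change was -0.19 ± 0.09 (SE, limma adjusted p = 0.304). The other OAS1 probe set, with 8.38, 8.30 and 8.03 in anti-miR-21 cells and 8.50, 8.45 and 8.61 in mock cells, did not overlap and was at -0.28 (adjusted p = 0.208). OAS3 read 9.50, 9.48 and 9.52 with anti-miR-21, against 9.28, 9.47 and 9.55 in mock (log2 fold change 0.07, adjusted p = 0.682). OAS2 had 0.07 on its representative and -0.27 on the other tested probe set, neither of which passed (adjusted p = 0.718 and 0.473). OASL, an OAS-like protein without that enzyme activity, was below the filter.

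The ISG15 system attaches a ubiquitin-like protein to other proteins, and none of its 4 genes passed. USP18, the protease that removes ISG15 and restrains receptor signalling, read 7.89, 7.92 and 7.94 with anti-miR-21, against 8.23, 7.96 and 8.18 in mock. Its groups did not overlap, and its log2 fold change was -0.20 ± 0.08 (SE, limma adjusted p = 0.237). ISG15 itself read 9.65, 9.45 and 9.51 with anti-miR-21, against 9.60, 9.70 and 9.75 in mock, with overlap, at -0.15 (adjusted p = 0.353). HERC5, the ligase that attaches ISG15 in human cells, was at 0.14 (adjusted p = 0.432). Its relative HERC6 was at -0.21 ± 0.16 (SE, adjusted p = 0.546), a value that leaned on anti-miR-21 replicate 2, which read 5.41 where the other 5 arrays read 5.95 to 6.07. Without that array HERC6 was at -0.01 (adjusted p = 0.978).

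Of the other antiviral effectors besides SAMD9, 3 were tested and did not pass. ISG20, an exonuclease, read 5.58, 5.58 and 5.57 with anti-miR-21, against 5.59, 5.57 and 5.70 in mock (log2 fold change -0.04, limma adjusted p = 0.717). DDX60, a helicase linked to RIG-I signalling, was at 0.02 (adjusted p = 0.902). MX1, a dynamin-like GTPase, was the gene closest to the filter, at 4.01 ± 0.04 with anti-miR-21 and 4.02 ± 0.02 in mock (SD, n = 3 each). MX2, the radical SAM enzyme RSAD2 (viperin) and the membrane protein IFITM1 were below it.

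Among the remaining interferon-induced genes besides IFI44, IFI35 had the smallest p. IFI35, a leucine zipper protein, read 10.10, 10.03 and 10.13 with anti-miR-21, against 10.15, 10.30 and 10.37 in mock. These values did not overlap, and the log2 fold change of -0.19 ± 0.07 (SE) did not pass (limma adjusted p = 0.229). IFI6, a membrane protein that inhibits apoptosis, was at -0.09 (adjusted p = 0.700), a value that turned to 0.01 on omitting anti-miR-21 array 3. It was -0.18 on omitting anti-miR-21 array 2 and -0.03 on omitting mock array 1. PARP9, an ADP-ribosyltransferase family member, was at 0.10 (adjusted p = 0.563). IFI27 and XAF1, an antagonist of the apoptosis inhibitor XIAP, were below the filter.

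Across the list, 6 of the 24 tested genes (25.0%) had every anti-miR-21 array below every mock array, where 15.1% of all genes did, namely IFIT1, IFIT3, IFI44, SAMD9, USP18 and IFI35. No listed gene had all anti-miR-21 arrays above mock on its representative, where 10.4% of all genes did. The dimmer IFIT5 probe set did, with 10.22, 10.19 and 10.19 with anti-miR-21, against 10.12, 10.16 and 10.14 in mock. Its log2 fold change of 0.06 did not pass (limma adjusted p = 0.535). The median deviation of the 24 genes from the mock mean was -0.03, -0.03 and -0.05 on the anti-miR-21 arrays and 0.04, 0.01 and -0.04 on the mock arrays, so the list as a whole overlapped between groups. Among the 21 genes that did not pass, leaving out 1 array turned the sign of 9 and moved 16 by over 1.5 times, and the others were IFIT3, OAS1, ISG15, USP18 and IFI35. The 3 genes that fell were low on all 3 anti-miR-21 arrays, with anti-miR-21 replicate 1 closest to mock for IFIT1 but not for IFI44 or SAMD9.

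**Figure D4:**
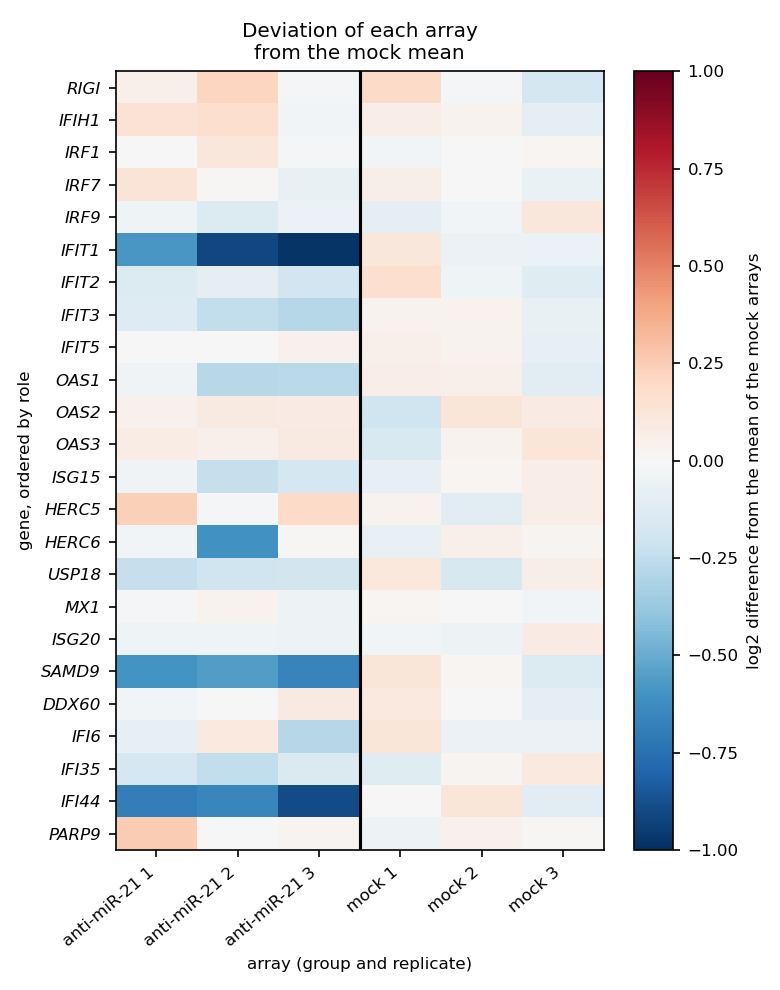
Log2 difference of each array from the mean of the mock arrays (colour) for the 24 tested genes (rows, by role) on the 3 anti-miR-21 arrays at the left and the 3 mock arrays at the right. IFIT1, SAMD9 and IFI44 form dark rows in all 3 anti-miR-21 arrays, while the other 21 genes have medians of -0.03, 0.00 and -0.05 on these arrays, with HERC6 on anti-miR-21 replicate 2 as a further dark cell (-0.61).

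The rest of the pathway was read from 100 further genes in 4 lists, of which 77 were tested, 1 fell, 0 rose and 76 did not pass (limma), beside 2.13% of all genes called in either direction. The gene that fell was TLR3, the endosomal receptor for double-stranded RNA. TLR3 read 5.39, 5.49 and 5.46 with anti-miR-21, against 5.94, 5.94 and 5.78 in mock, without overlap, a log2 fold change of -0.44 ± 0.06 (SE, adjusted p = 0.026). Its other tested probe set was at -0.14 (adjusted p = 0.543), and averaging them ended the call (adjusted p = 0.0965). With 1 array left out TLR3 passed in 1 case of 6, when mock array 3 was omitted (adjusted p = 0.0392). The adjusted p was 0.0539, 0.0911 and 0.105 on omitting anti-miR-21 array 1, 2 or 3, and 0.0593 and 0.113 on omitting mock array 1 or 2. In the sensing and adaptor list, of 14 tested genes, the kinase IKBKE was next by p, at -0.14 (adjusted p = 0.200).

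Among 14 tested receptor and JAK-STAT genes none passed. The feedback inhibitors SOCS1 and SOCS3 had the smallest p and opposite signs. SOCS1 read 7.97, 8.08 and 7.98 with anti-miR-21, against 8.53, 8.21 and 8.47 in mock, and SOCS3 read 8.93, 9.19 and 8.99 with anti-miR-21, against 8.71, 8.40 and 8.18 in mock. Neither overlapped between groups, and the log2 fold changes of -0.39 ± 0.09 and 0.61 ± 0.14 (SE) each had a limma adjusted p of 0.0888.

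Among 30 further interferon-induced effectors none passed, with TRIM5, a retroviral restriction factor, at -0.35 (adjusted p = 0.215) and DTX3L, a ubiquitin ligase that pairs with PARP9, at 0.18 (adjusted p = 0.211). Of 19 genes of the interferon gamma response and antigen presentation none passed on the representative probe set. The guanylate-binding protein GBP3 was at 0.59 ± 0.16 (SE, adjusted p = 0.132) and GBP1 at -0.34 ± 0.15 (SE, adjusted p = 0.303), again with opposite signs. A dimmer GBP1 probe set, of a class that can match related transcripts (suffix x_at), did pass, with 8.45, 8.41 and 8.40 in anti-miR-21 cells and 8.89, 8.90 and 8.73 in mock cells, a log2 fold change of -0.42 (adjusted p = 0.0259). Medians of the 4 lists lay between -0.03 and 0.00, near the median of all genes.

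**Figure D5:**
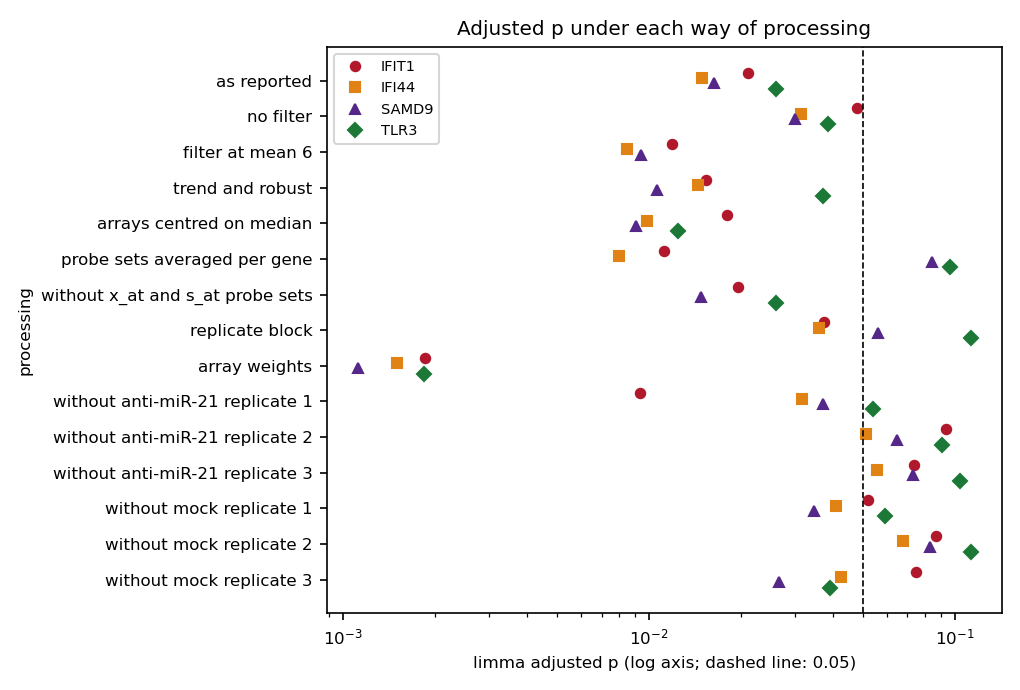
Limma adjusted p (x axis, log scale) of IFIT1, IFI44, SAMD9 and TLR3 as reported and under 14 other ways of processing (rows), with the threshold of 0.05 as a dashed line. All 4 genes lie left of the line as reported, and all 4 lie right of it when anti-miR-21 array 2 or 3 or mock array 2 is omitted.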

How the data were processed

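The deposited log2 values cover 54675 probe sets on 6 arrays. The authors computed them with GCRMA, according to the submitters' processing notes, with no version or settings given there. Values ran from 0.0443 to 16.2, with array medians of 3.02 to 3.16, and were used as deposited, without the 62 control probe sets. Names came from the platform annotation, updated by Entrez identifier, and those listing several genes (2 for this list, shared by IFITM1 and by IRF9) were left out. Groups came from the sample titles.

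Probe sets with a mean of at least 4 were fitted by lmFit and eBayes (limma 3.58.1, R 4.3.3), 3 anti-miR-21 against 3 mock arrays with no covariate. Two-sided p values were adjusted by Benjamini-Hochberg over 22408 probe sets, and an adjusted p below 0.05 is a call. Each gene is read from its brightest tested probe set, called its representative. The fit was tested on simulated data with independent noise on each array, which does not reproduce variation shared among arrays. The labels do not say how far the cultures were independent, so p reflects variation among these arrays, which may be technical, and the number of arrays limits precision.

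All listed genes are named. Values on every array are given for genes with a called probe set and the 2 with the smallest p in each role, and further pathway genes are named if called or among the 2 smallest p of their list. Other values shown and the comparison within the IFIT family were chosen after the values were seen. Members, lists and tests were chosen with earlier results of these data known. The 14 alternatives covered the filter, eBayes settings, centring, averaging of probe sets, probe set types, a replicate block, array weights and leaving out each array.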

Additional observations from a re-analysis of the deposited data

How the results depend on the processing

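IFIT1, IFI44 and SAMD9 kept a negative log2 fold change in every alternative that gave a value, with ranges of -0.94 to -0.74, -0.88 to -0.67 and -0.68 to -0.42. That sign was partly fixed in advance. The filter, eBayes and replicate block settings leave the fold change of a probe set unchanged. Groups without overlap also keep their sign when 1 array is left out. No tested probe set of IFI44 remained when the x_at and s_at classes were left out. With each array left out in turn, listed genes called lower ranged from 0 to 3 and their probe sets from 0 to 4, with 0 higher in each. All genes called ranged from 38 to 226, all probe sets from 96 to 574 and pathway genes from 0 to 1. Leaving out anti-miR-21 replicate 2, anti-miR-21 replicate 3 or mock replicate 2 left 0 listed genes, where 0.231%, 0.231% and 0.221% of all genes were then called lower. Over all 6 omissions IFIT1 ranged from -0.94 to -0.74, IFI44 from -0.81 to -0.67 and SAMD9 from -0.68 to -0.55. With array weights 7 listed genes and 8 of their probe sets were lower, where 13.6% of all genes were lower. The listed genes added were IFIT3 (both probe sets), OAS1, ISG15 and IFI35 (limma adjusted p from 0.00715 to 0.0359). In that setting 14 pathway genes, 2441 genes and 4952 probe sets were called. Averaging probe sets gave 355 genes and put SAMD9 at -0.42 (adjusted p = 0.0842). Leaving out the x_at and s_at classes gave 323 probe sets, and the filter at 6, which drops TLR3, left 0 pathway genes. The cause of these changes was not tested beyond the fewer probe sets, genes or arrays that the settings themselves remove.

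Deviations of same-numbered arrays from their group means correlated at -0.361, -0.266 and -0.002, and no array correlated best with its own number. With 3 arrays per group these correlations depend on one another, so they cannot decide whether the replicate numbers pair the samples. With the replicate block 32 genes, 91 probe sets and 0 pathway genes were called, and SAMD9, at -0.61, did not pass (adjusted p = 0.0563). Brightness limits the list further, since the 10 genes below the filter, at log2 means of 1.68 to 2.99, were not tested in the main fit. Fitted without the filter, none of them passed (limma adjusted p from 0.867 to 0.880), at levels where GCRMA compresses faint signals.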
